A study of Mus musculus with 62 samples.

Results

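Brown adipose tissue of mice injected with cachectic melanoma cells (CAC) was compared between 8 weeks (7 libraries) and 6 weeks (5 libraries) after the injection. The groups follow the sample titles, and the 12 libraries are the last step of a time course that was also sampled at 2 and 4 weeks, out of 62 libraries in the series. Mice with a mock injection (Con) and mice with non-cachectic melanoma cells (NCAC), 5 libraries each at 6 and at 8 weeks, give the same step in time without cachectic cells. All mice are labelled as female and 2 months old. The sample labels give the strain as C57BL6/J, whereas the series text names NCI Ath/nude mice, so the strain is uncertain. The labels do not name the melanoma lines, give no body or tumour weight, and call the samples biological replicates without tying them to animals, so p-values measure the spread between these samples. The question put to these data was whether the tissue had reached a plateau by 6 weeks or went on changing to 8 weeks.

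Brown fat burns fatty acids and glucose to make heat. Its adipocytes are packed with mitochondria, and uncoupling protein 1 (UCP1) lets protons return across the inner mitochondrial membrane without making ATP. Cachexia is wasting of adipose tissue and muscle in cancer patients and tumour-bearing animals. Inflammation and glucocorticoids often accompany it, and both induce acute phase plasma proteins and stress genes.

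Abundance is given in TPM, which corrects a transcript's reads for its length and for library size, so the read depth of a library is unknown. Between 11237 and 11942 genes reached 1 TPM in a library of either group. The 12 brown adipocyte markers summed to between 33502 and 36990 TPM at 6 weeks and between 21788 and 35077 TPM at 8 weeks, and no marker was below 1 TPM throughout either group. Transcripts of the mitochondrial genome took 52.3% ± 1.12 (SD, n = 5) of the TPM at 6 weeks and 50.8% ± 3.67 (n = 7) at 8 weeks. The difference of -1.50 percentage points was within the spread of the libraries (2-sided exact permutation test over 792 splits, p = 0.424). Libraries varied more at 8 than at 6 weeks, with a median within-group SD over genes of 0.250 against 0.170 on the log2(TPM + 1) scale. Library 3 of 8 weeks stood apart from the other 6 for inflammation genes, so results that rest on it are given with and without it. That choice was made after the data were seen, because those genes were low in it. Counts and medians of inflammation lists without it are therefore descriptions and support nothing. The same holds for changes and p-values without it in single genes of the inflammation, glucocorticoid, zinc and stress lists. For the other lists, too, the fit without library 3 was chosen after the data were seen. That library also held the lowest brown adipocyte marker sum of 8 weeks, 21788 TPM. Calls gained without it in any list are therefore descriptions. By rank correlation with its own group library 5 of 8 weeks (median Spearman 0.947) was as far out as library 3 (0.951), and list results without library 5 are given too.

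Few genes were called between 8 and 6 weeks with all libraries. Of 12581 genes tested, 82 (0.652%) passed limma's test at an adjusted p under 0.05, of which 67 (0.533%) were higher and 15 (0.119%) were lower at 8 weeks. The changes ran from -2.65 for Btg3 to 1.68 for Mup7 on the log2(TPM + 1) scale, which understates the change of genes with low values. Only 15 of the 82 moved by more than 1 in log2, among them Ucp1 and Perm1 downward and Vat1l and C4a upward. The median change of all genes was 0.06. For 11920 genes (94.7%) the 95% interval of the change lay within 1 log2 unit of 0 on both sides. The median half-width of these intervals was 0.24, so smaller shifts than that in single genes were mostly not resolved. The intervals are not adjusted for the number of genes tested, whereas the calls are, so larger shifts than 0.24 could also go uncalled. Neither of the other arms gave a call over the same weeks: limma called 0 genes in Con (428 at an unadjusted p under 0.05) and 0 in NCAC (629), beside 1555 in CAC (12.4%). Of these 1555, 1198 were higher (9.52% of all genes) and 357 lower (2.84%).

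The calls rest on a spread pooled over all 12 groups of the series and on a few libraries. The groups were not equally variable: the median SD was 0.291 in Con at 4 weeks, 0.250 in CAC at 8 weeks and at most 0.209 in the others. The pooled spread can therefore be too small for CAC at 8 weeks. It also includes libraries 3 and 4 of Con at 4 weeks, where the mitochondrial genome took 39.6% and 39.7% of the TPM, against at least 57.1% in libraries 1, 2 and 5. With the spread of the CAC groups at 6 and 8 weeks alone, Perm1 (adjusted p = 0.0333) and Tmem221 (adjusted p = 0.0201) were called and the other 80 calls were lost. Without library 3 of 8 weeks 502 genes (3.99%) were called, 446 higher (3.55%) and 56 lower (0.445%), with all 82 among them. With the spread of the 2 groups alone, leaving out that library gave 17 calls, 12 of them among the 82. Of the genes in the 49 lists described here only C4b and Itih4 were among those 17, so the other list members called without library 3 rest on the pooled spread. Without library 2 of 6 weeks 12 genes were called, and 70 of the 82 were lost. Leaving out library 6 of 8 weeks gave 26 calls, and leaving out library 5 of 8 weeks gave 190. Rescaling the libraries by the median of gene ratios gave 206 calls, 105 higher (0.835%) and 101 lower (0.803%), so the share of higher calls went from 81.7% to 51.0%. That rescaling kept 76 of the 82. In 2 other settings the falls outnumbered the rises. Quantile normalization gave 109 higher and 197 lower calls, and removing mitochondrial transcripts and rescaling the rest gave 126 higher and 166 lower.

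**Figure D1:**
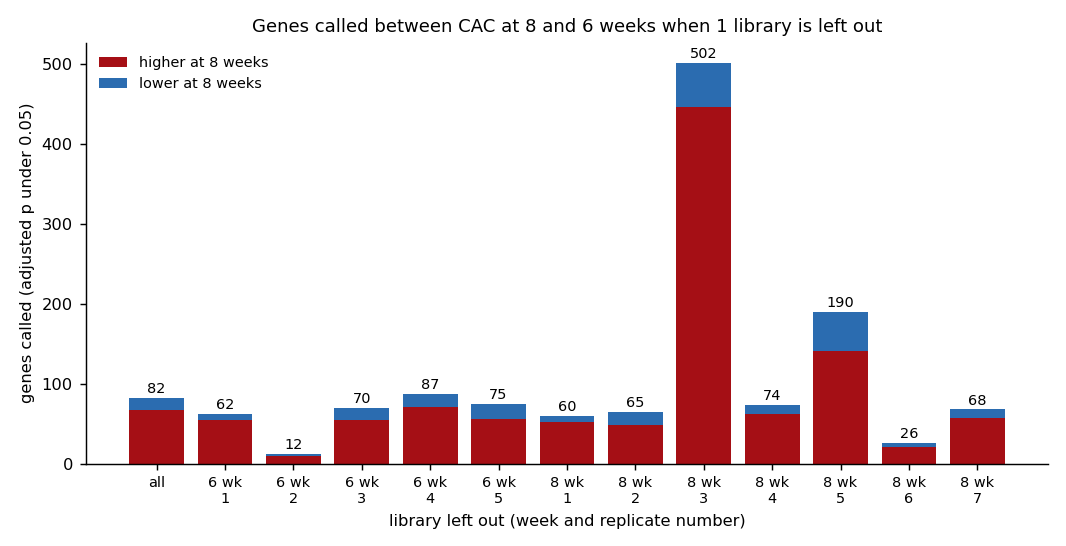
Number of genes called between CAC at 8 and at 6 weeks (y axis, stacked by direction) with all 12 libraries and with each library left out (x axis, week and replicate number). The count was 82 with all libraries, 12 without library 2 of 6 weeks and 502 without library 3 of 8 weeks.

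Among the 15 genes that fell were Perm1, Ucp1 and Cs, which encodes the citrate synthase that starts the tricarboxylic acid cycle. Egln1, Lrrc39, Lipa, Cars2 and Qrsl1 also fell. The 250 bases before the RefSeq start site (GRCm38.p6) are shown for Perm1, Ucp1 and Cs, the genes on which the description of the fall turns. Capitals mark AAGGTCA, the estrogen-related receptor motif, searched on both strands. The match shown overlaps none of the other motifs searched (TTCNNNGAA, ACANNNTGT, TGACGTCA and CACGTG, with no match in these windows). It occurs in 4.08% of 32851 RefSeq promoters over the same length.
Perm1, chr4:156215677-156215926, plus strand: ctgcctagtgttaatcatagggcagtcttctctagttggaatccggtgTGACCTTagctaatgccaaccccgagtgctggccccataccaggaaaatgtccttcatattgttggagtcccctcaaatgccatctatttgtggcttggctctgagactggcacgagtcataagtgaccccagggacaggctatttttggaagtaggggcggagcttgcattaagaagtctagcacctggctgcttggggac
Ucp1, chr8:83290098-83290347, plus strand: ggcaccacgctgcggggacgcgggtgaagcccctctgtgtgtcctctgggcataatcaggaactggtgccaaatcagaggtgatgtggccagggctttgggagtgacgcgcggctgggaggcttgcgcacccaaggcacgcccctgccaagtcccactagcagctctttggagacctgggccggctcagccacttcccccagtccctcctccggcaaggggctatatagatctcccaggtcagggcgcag
Cs, chr10:128337477-128337726, plus strand: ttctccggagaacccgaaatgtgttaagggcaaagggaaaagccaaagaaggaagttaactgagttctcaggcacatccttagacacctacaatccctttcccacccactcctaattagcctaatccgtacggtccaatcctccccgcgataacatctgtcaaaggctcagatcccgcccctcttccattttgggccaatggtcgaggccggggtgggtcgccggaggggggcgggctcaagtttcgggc
The Perm1 window holds 1 match, on the minus strand 202 bases before the RefSeq start, and the other 2 windows hold none. The end of the Perm1 window lies inside the gene as GENCODE places it, so the distance depends on the start used. A match of letters is a description and not a measured binding site.

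Perm1 (chr4:156215868-156221307, mm10) encodes a regulator named for its induction by PGC-1 and estrogen-related receptors in muscle. Its levels at 6 weeks were 42.7, 44.1, 19.5, 26.1 and 37.0 TPM, and at 8 weeks they ran from 4.88 through a median of 10.4 to 13.1 TPM. All 7 libraries at 8 weeks lay below all 5 at 6 weeks, library 3 among them. Its mean went from 33.9 ± 10.7 (SD, n = 5) down to 9.43 ± 2.83 TPM (n = 7), which is -1.73 in log2 (SE 0.26, adjusted p = 0.000163, limma). Con stood at 28.7 ± 11.3 and 24.0 ± 8.33 TPM at 6 and 8 weeks, and CAC at 31.3 ± 6.64 and 21.4 ± 5.75 TPM at 2 and 4 weeks. Thus the group mean at 8 weeks was the lowest of these groups, and the call held whichever library was left out (largest adjusted p = 0.0036).

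Ucp1 (chr8:83290352-83298452) had 7510, 8205, 6479, 5569 and 5135 TPM at 6 weeks, against a lowest of 1640, a median of 3198 and a highest of 4659 TPM at 8 weeks. Here too the groups did not overlap, and library 3 held the lowest value. The mean at 8 weeks was 53.5% lower, a log2 change of -1.19 (SE 0.25, adjusted p = 0.0125, limma). Without library 3 the change was -1.05 (adjusted p = 0.0116), and without library 2 of 6 weeks the adjusted p was 0.0785. Of the 15 genes that fell, 5 had every library at 8 weeks below every library at 6 weeks: Perm1, Ucp1, Egln1, Pmf1 and Poln. Over all genes tested that held for 33 (0.262%), and the opposite order for 50 (0.397%).

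Cs (chr10:128337734-128362479) went from 1022, 1248, 1003, 1249 and 978 TPM at 6 weeks to between 679 and 989 TPM (median 892) at 8 weeks. The ranges overlapped, since 2 libraries of 8 weeks reached the lowest of 6 weeks. The log2 change was -0.38 (SE 0.08, adjusted p = 0.0133), to a level near that of Con at 8 weeks (890 ± 52.4 TPM). Egln1, a prolyl hydroxylase that marks hypoxia-inducible factors for breakdown, went from between 91.1 and 137 TPM to between 61.1 and 90.5 TPM, a change of -0.62 (SE 0.15, adjusted p = 0.0211). Con held 114 TPM in both weeks. Lrrc39, a leucine-rich repeat protein known from striated muscle, fell from 8.24 ± 1.37 to 4.79 ± 1.62 TPM (log2 change -0.71, adjusted p = 0.00944).

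**Figure D2:**
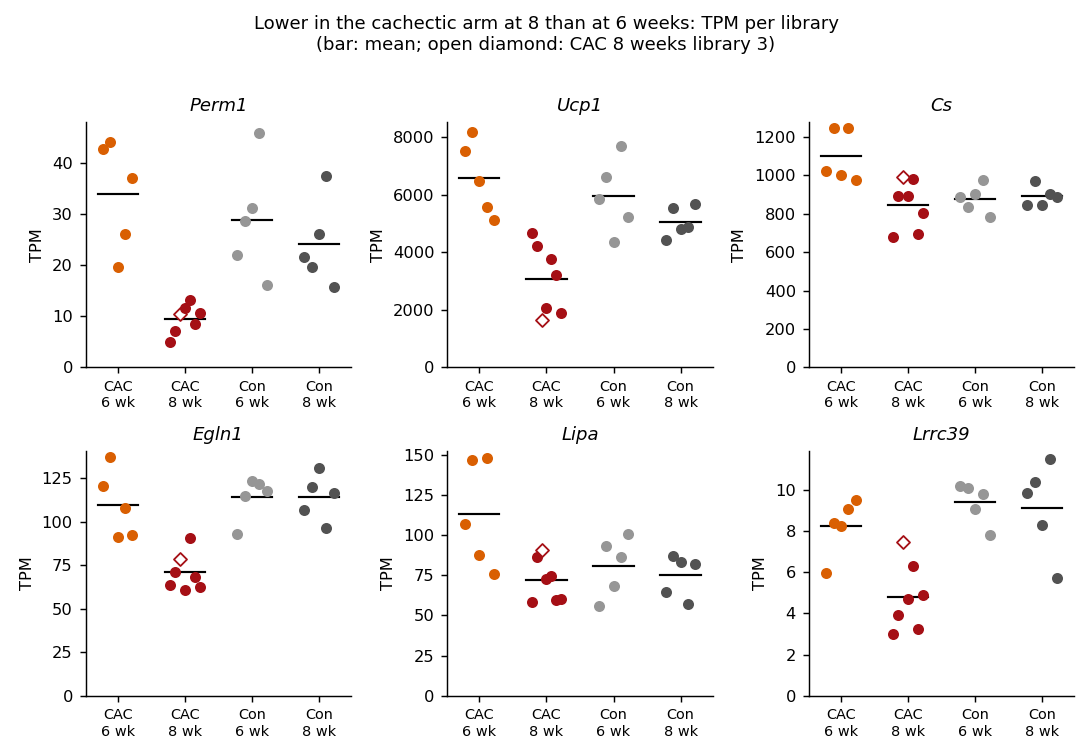
TPM (y axis, from 0) per library of 6 genes lower at 8 than at 6 weeks in CAC, with Con beside them. Points are libraries, bars are group means and the open diamond is library 3 of CAC at 8 weeks. Perm1, Ucp1 and Egln1 show no overlap between the CAC groups, while for Cs, Lipa and Lrrc39 the ranges overlap.

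Lipa, the lysosomal acid lipase, went from 113 ± 33.2 to 71.7 ± 13.3 TPM (log2 change -0.62, adjusted p = 0.0489). Cars2 and Qrsl1, which serve translation inside mitochondria, changed by -0.62 and -0.42, and Tstd3, Pmf1 and Poln by -0.55, -0.52 and -0.47. Btg3 and Cxadr lie on opposite strands of chromosome 16 and overlap (78332637 to 78377192 and 78301489 to 78359774). How reads were assigned to strands is not given in the sources used here, so their values cannot be told apart with certainty. Cxadr, a cell adhesion receptor, changed by -0.84 (adjusted p = 0.0169). Btg3, a member of an antiproliferative family, had 7.90, 0, 10.5, 18.8 and 12.2 TPM at 6 weeks and at most 0.929 TPM at 8 weeks, so 1 library of 6 weeks already sat with the later group. In NCAC the mean likewise went from 6.66 to 0.368 TPM (log2 change -2.23, adjusted p = 0.863), and the difference between the 2 steps was -0.41 (SE 0.98). In Con values ran from 0 to 7.78 TPM at 6 weeks and from 0 to 11.5 TPM at 8 weeks.

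Among 28 thermogenesis and brown adipocyte identity genes 1 was called, Ucp1, beside 0.119% of all genes called lower. At an unadjusted p under 0.05 (limma) 7 were lower, beside 2.84% of all genes. The median change of that list was -0.07 beside 0.06 for all genes. Over the same weeks it was -0.11 in Con and -0.08 in NCAC, beside -0.05 and -0.09 for all genes. The list median thus lay below that of all genes in CAC and Con but not in NCAC. Dio2, the deiodinase that activates thyroid hormone, had 104, 154, 25.5, 43.9 and 97.8 TPM at 6 weeks and between 14.0 and 167 TPM at 8 weeks, which overlapped widely (log2 change 0.24, SE 0.60, adjusted p = 0.925). Ppargc1a, the coactivator PGC-1α, changed by -0.55 (SE 0.45, adjusted p = 0.680), and Adrb3, the adipocyte beta-adrenergic receptor, by 0.18 (SE 0.33, adjusted p = 0.896). Gnas, whose product couples that receptor to cAMP, changed by -0.61 (SE 0.17) and narrowly missed the threshold (adjusted p = 0.0611), passing it without library 3 (adjusted p = 0.0338).

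Nuclear respiratory chain and ATP synthase genes had a median of -0.13 with 0 of 37 called by limma, 11 lower at an unadjusted p under 0.05 (2.84% of all genes), and 33 of the 37 below 0. The other arms had medians of -0.06 in Con and -0.13 in NCAC, with only 7 and 2 of the 37 above 0. All genes there also leaned downward, with medians of -0.05 in Con and -0.09 in NCAC, beside 0.06 in CAC. The 13 transcripts of the mitochondrial genome had a median of -0.07 with 0 called by limma and 1 lower at an unadjusted p under 0.05. For mt-Co1 the 95% interval ran from -0.09 to 0.21. In the tricarboxylic acid cycle list 1 of 18 was called, Cs, beside 0.119% of all genes called lower, and the median was -0.12. At an unadjusted p under 0.05 (limma) 6 of the 18 were lower and 2 higher, beside 2.84% and 9.52% of all genes. Without library 3 of 8 weeks Letmd1, Cox7a1 and Acot11 joined Ucp1, with changes of -0.56, -0.44 and -0.86. Suclg1 and Pdhb joined Cs, with -0.32 and -0.47, where 0.445% of all genes were called lower. In the same fit Suclg2, which encodes another subunit of succinyl-CoA ligase, rose by 0.26 (adjusted p = 0.0273). Without library 5 the thermogenesis list had Ucp1, Letmd1 and Acot11 called and the tricarboxylic acid cycle list Cs and Suclg1, all lower.

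With all libraries and without rescaling, the genes that rose were more numerous. Nxnl1 and Tmem221 are neighbours on the minus strand of chromosome 8 (71560555 to 71566601 and 71554238 to 71558871). Nxnl1, a thioredoxin-like protein, had 7.22, 6.10, 6.47, 7.60 and 7.84 TPM at 6 weeks and between 10.1 and 21.0 TPM (median 13.4) at 8 weeks. The groups did not overlap, and the change was 0.95 (SE 0.18, adjusted p = 0.00506). Tmem221, a membrane protein chosen here after its values were seen, had 1.52, 1.15, 0.997, 0.563 and 0.943 TPM at 6 weeks and between 2.41 and 4.66 TPM (median 3.26) at 8 weeks. Again every library at 8 weeks was higher, with a change of 1.12 (SE 0.19, adjusted p = 0.00117). Both calls held without any 1 library. In Con at 8 weeks Nxnl1 had 6.79 ± 1.21 TPM and Tmem221 between 0.667 and 2.12 TPM.

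Vat1l, a protein related to a vesicle amine transport factor, had 17.2, 11.6, 19.6, 29.3 and 35.7 TPM at 6 weeks and between 19.0 and 86.7 TPM (median 57.7) at 8 weeks. The low value was library 3, and the other 6 libraries of 8 weeks exceeded all of 6 weeks. The change was 1.37 (SE 0.30, adjusted p = 0.0144), or 1.62 without library 3 (adjusted p = 0.000517). Con had 7.29 ± 2.55 and 7.80 ± 1.08 TPM. Fgl1, a secreted fibrinogen-like protein of the liver, is listed at 0 in every Con library of both weeks. It had 1.68, 0.359, 0.529, 0.535 and 0.317 TPM at 6 weeks and between 0.0860 (library 3) and 4.89 TPM (median 2.94) at 8 weeks. This rise passed the test (1.01, SE 0.17, adjusted p = 0.00151) at a low absolute level. The call was lost with a pseudocount of 0.1 (adjusted p = 0.0693) and in the fit of the 2 groups alone (adjusted p = 0.478).

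Some of the other genes that rose encode enzymes. Gstt2, a glutathione transferase, went from 26.1, 19.9, 21.9, 29.0 and 38.3 TPM to between 29.2 and 64.3 TPM (median 53.7), a change of 0.88 (SE 0.18, adjusted p = 0.0112). Hpd, a tyrosine breakdown enzyme, Cdo1, which oxidises cysteine, and Pck2, the mitochondrial phosphoenolpyruvate carboxykinase, rose by 1.22, 0.52 and 0.77. Mettl7a1, a lipid droplet methyltransferase, rose from 260 ± 18.1 to 418 ± 73.3 TPM (log2 change 0.66, adjusted p = 0.0165), and library 3 alone (267 TPM) stayed in the range of 6 weeks. Mttp, which loads lipid onto lipoproteins, and Maob, a monoamine oxidase, rose by 0.52 and 0.46.

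Map1lc3b and Stx17, which act in autophagy, also rose. Map1lc3b, the precursor of the autophagosome protein LC3B, had 105, 77.8, 88.6, 83.3 and 85.4 TPM at 6 weeks and between 83.9 and 182 TPM (median 121) at 8 weeks. Library 3 was lowest at 8 weeks and 5 of the 7 exceeded every library of 6 weeks. The change was 0.55 (SE 0.12, adjusted p = 0.0160). Stx17, the syntaxin that fuses autophagosomes with lysosomes, had 13.7 ± 1.43 TPM at 6 weeks and 19.5 ± 4.70 TPM at 8 weeks, a change of 0.45 (SE 0.10, adjusted p = 0.0147). The Rab GTPase gene Rab40b rose by 0.83 (adjusted p = 0.0285).

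Isg20, an interferon-inducible exonuclease, had 5.10, 3.86, 4.90, 3.41 and 3.61 TPM at 6 weeks and between 5.91 and 14.2 TPM (median 8.53) at 8 weeks, with no overlap. It changed by 0.89 (SE 0.17, adjusted p = 0.00659) and kept its call without any 1 library. Yet 0 of 24 interferon-stimulated genes of a list that does not hold it were called by limma (unadjusted p under 0.05 for 1 in each direction), at a median of 0.10. Mc5r, a melanocortin receptor, had values between 1.66 and 7.34 TPM at 6 weeks and between 4.48 and 17.0 TPM at 8 weeks. Library 3 again held the low end, and the change was 1.07 (adjusted p = 0.0328). Katnal2, Pbld2, Fbxo36 and Negr1 rose by 0.97, 0.94, 0.71 and 0.69. Mup7 (1.68, adjusted p = 0.0352) belongs to a family of near-identical urinary protein genes, and C4a (1.37, adjusted p = 0.0258) to a pair with C4b, so reads could be split between copies and both values are uncertain.

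**Figure D3:**
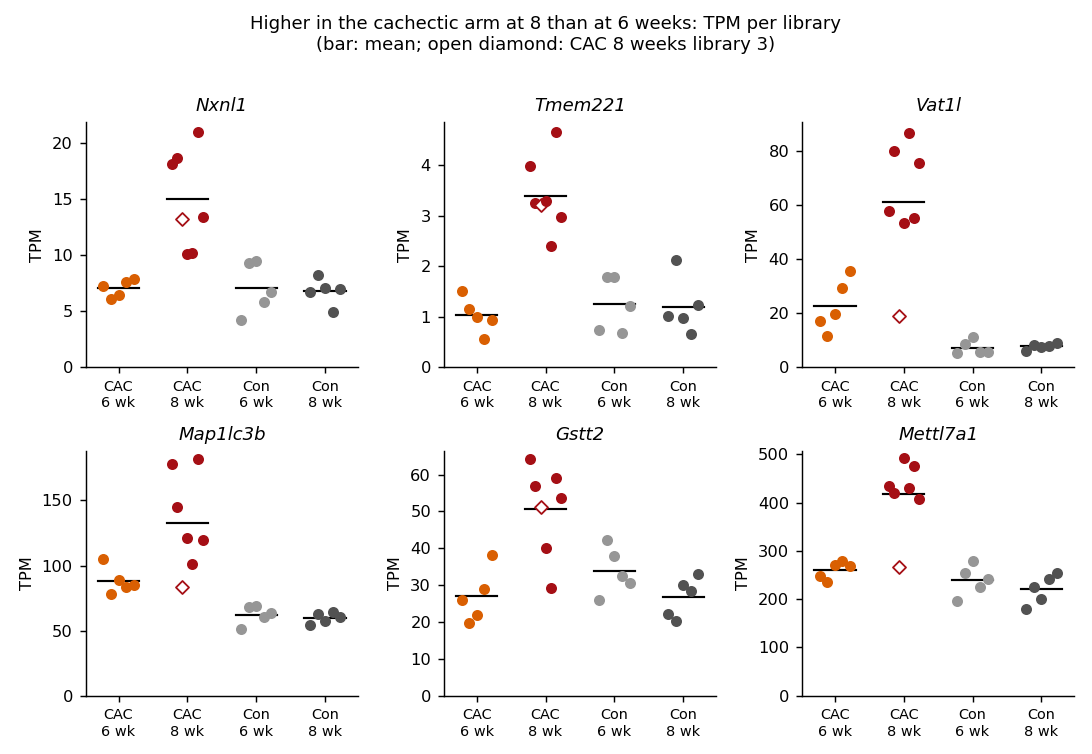
TPM (y axis, from 0) per library of 6 genes higher at 8 than at 6 weeks in CAC, with Con beside them. Points are libraries, bars are means and the open diamond is library 3 of CAC at 8 weeks. Nxnl1 and Tmem221 show no overlap between the CAC groups, while for Vat1l, Map1lc3b and Mettl7a1 library 3 lies within the range of 6 weeks.

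Acute phase transcripts did not pass the test for a further change when all libraries were used. Itih4, which encodes a plasma inhibitor heavy chain, had 563, 302, 302, 397 and 245 TPM at 6 weeks and between 41.9 and 1176 TPM (median 1012) at 8 weeks, against 1.61 ± 0.449 and 1.33 ± 0.250 TPM in Con. At 8 weeks 6 libraries lay between 709 and 1176 TPM, above all of 6 weeks, and library 3 lay below all of them. The change was 0.86 with a 95% interval from -0.38 to 2.10 (adjusted p = 0.615), or 1.51 without library 3 (adjusted p = 0.0957). Hp, the haemoglobin scavenger haptoglobin, had 7149, 3545, 7173, 7544 and 2490 TPM at 6 weeks and a median of 5663 TPM at 8 weeks, from 391 in library 3 to 13174. Its interval from -1.21 to 0.72 spanned 0 and shows neither a rise nor a plateau.

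C4b, the complement factor, had 228, 257, 456, 224 and 304 TPM at 6 weeks and between 181 and 823 TPM (median 686) at 8 weeks. With all libraries the change was 0.98 (adjusted p = 0.171, limma). Without library 3 all 6 libraries of 8 weeks were above those of 6 weeks, and the change was 1.25 (SE 0.33, adjusted p = 0.0203). That value is a description only, since library 3 was set aside for low values of such genes. In the acute phase list limma called 0 of 22 genes with all libraries (8 higher at an unadjusted p under 0.05, beside 9.52% of all genes), at a median of 0.36. Without library 3 of 8 weeks 6 of 22 were higher, beside 3.55% of all genes, with a median of 0.54 beside 0.09: Itih3, Serpina3c, Serpina3m, Saa3, Fga and Serpina3k. Fga, a fibrinogen chain, had at most 5.13 TPM at 6 weeks, and 69.8, 0.311, 0.0141, 9.26, 1.77, 43.1 and 1.78 TPM at 8 weeks. Only 3 libraries of 8 weeks exceeded those of 6 weeks, so its change of 2.17 without library 3 (adjusted p = 0.00772) rests mainly on libraries 1 and 6. Libraries 1 and 6 were also highest for Serpina3k (140 and 106 TPM), which changed by 2.29 (adjusted p = 0.00816). With all libraries the changes were 1.73 and 1.89 (adjusted p = 0.0951 and 0.0764). The Serpina3 genes are close copies, so their separate values are uncertain.

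**Figure D4:**
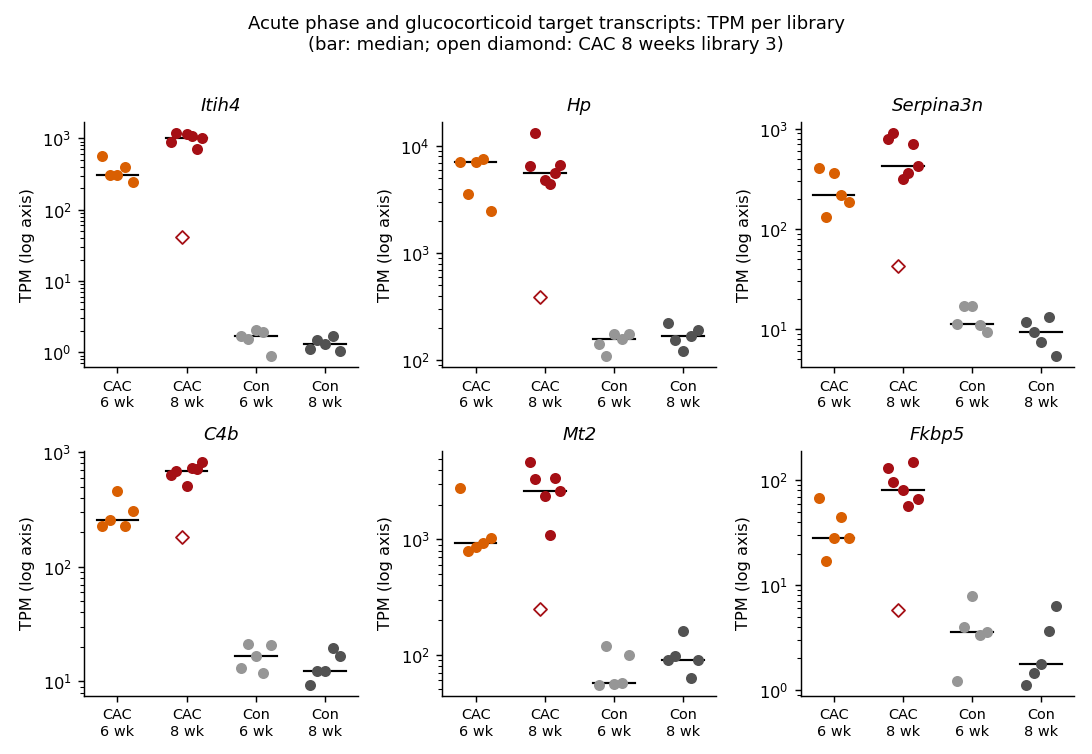
TPM (y axis, log scale) per library of Itih4, Hp, Serpina3n, C4b, Mt2 and Fkbp5 in CAC and Con at 6 and 8 weeks. Points are libraries, bars are medians and the open diamond is library 3 of CAC at 8 weeks, which is the lowest of its group in all 6 panels, at 41.9 TPM for Itih4 where the other 6 lie between 709 and 1176 TPM.

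Glucocorticoid receptor targets showed the same dependence on 1 library. Fkbp5, a chaperone induced by the receptor, had 67.8, 17.0, 28.5, 44.5 and 28.2 TPM at 6 weeks and between 5.81 (library 3) and 150 TPM (median 81.8) at 8 weeks, a change of 0.89 (SE 0.66, adjusted p = 0.637). Of the list limma called 0 of 22 (unadjusted p under 0.05 for 5 upward and 1 downward, beside 9.52% and 2.84% of all genes), at a median of 0.46. Without library 3 of 8 weeks 4 of 22 were higher, beside 3.55% of all genes: Klf15, Rhou, Sult1a1 and Errfi1, by 0.93, 0.96, 1.13 and 1.28. Mt2, a metallothionein that binds zinc, went from a mean of 1279 to 2540 TPM, with 0.76 (SE 0.48, adjusted p = 0.551). The zinc importer Slc39a14 changed by 1.18 (adjusted p = 0.171) with all libraries and by 1.61 (adjusted p = 0.00665) without library 3. Immediate early genes had the highest median of the 35 process lists, 0.53, with 0 of 22 called by limma and 4 higher at an unadjusted p under 0.05, beside 9.52% of all genes. Without library 5 limma called none of the immediate early, glucocorticoid, acute phase or unfolded protein response genes, at medians of 0.63, 0.48, 0.40 and 0.11.

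In the autophagy and FOXO atrophy list 1 of 24 was called, Map1lc3b, beside 0.533% of all genes called higher. At an unadjusted p under 0.05 (limma) 6 were higher, beside 9.52% of all genes, and the list median was 0.21. Without library 3 of 8 weeks 4 of the 24 were called higher, beside 3.55% of all genes. Gabarapl1, Ctsb and Fbxo31 were those added, by 0.61, 0.36 and 1.24. Of 22 unfolded protein response genes limma called 0 (6 higher at an unadjusted p under 0.05, beside 9.52% of all genes), at a median of 0.18. Without library 3 of 8 weeks 5 were higher (3.55% of all genes), among them Xbp1 (0.68, adjusted p = 0.0477), the transcription factor of that response, and the disulphide isomerase Pdia6 (0.66, adjusted p = 0.00581). Proteasome subunits (0 of 30, median -0.09), cytosolic ribosomal proteins (0 of 36, 0.03), heat shock genes (0 of 18, 0.02) and integrated stress response genes (0 of 17, 0.01) gave no call with all libraries. Without library 5 of 8 weeks limma called Ppp1r15a of the integrated stress response list and Il6ra of the IL-6 receptor list higher. It called Gpd1 (lipolysis), Sod2 (antioxidant) and Epas1 (hypoxia) lower. Over all 12581 genes 141 were higher and 49 lower in that fit.

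**Figure D5:**
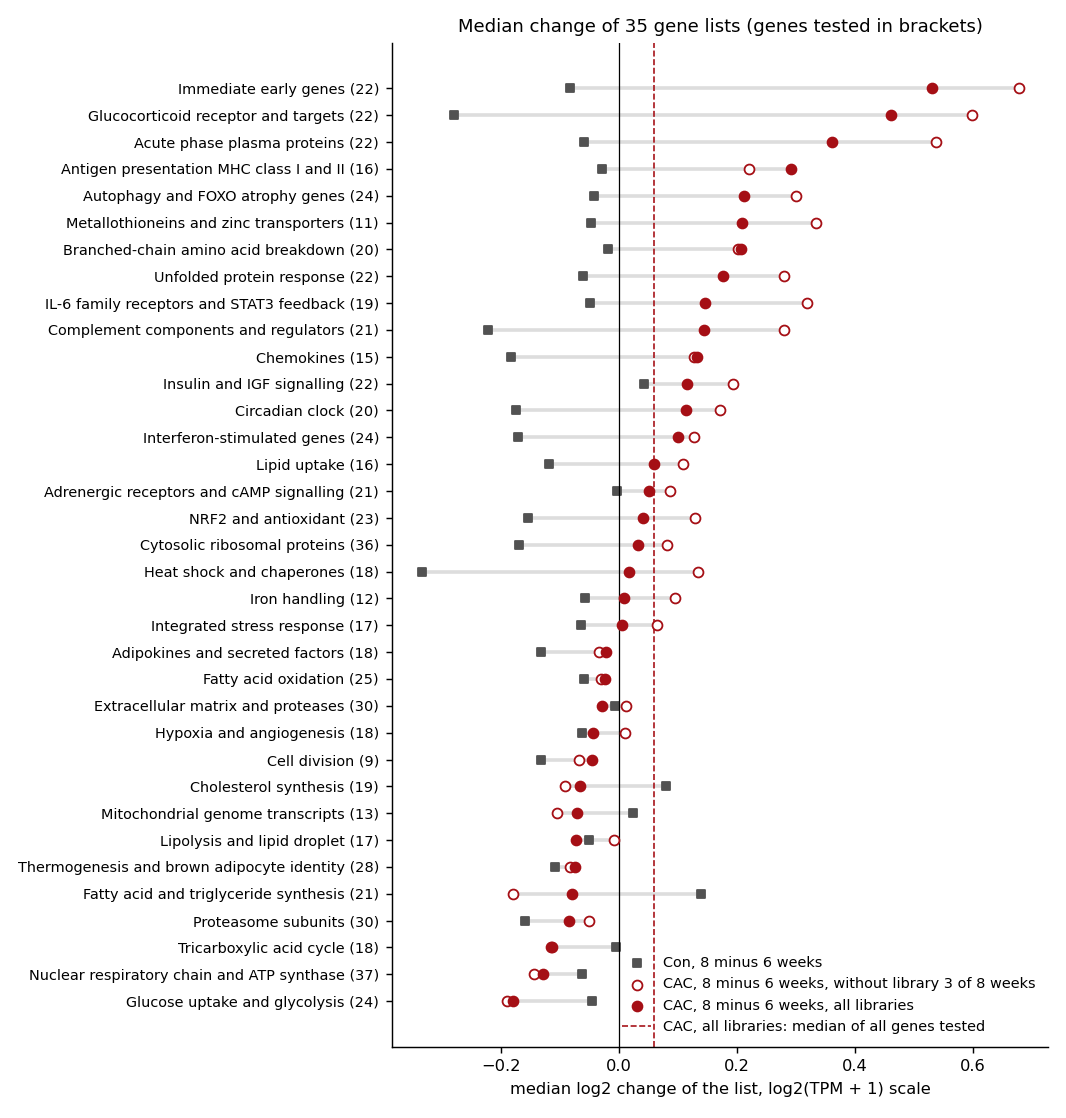
Median log2 change from 6 to 8 weeks (x axis) of 35 gene lists (y axis, number of genes tested in brackets) in CAC with all libraries, in CAC without library 3 of 8 weeks and in Con. The dashed line is the median of all genes in CAC, 0.06. Immediate early, glucocorticoid and acute phase genes lie highest, at 0.53, 0.46 and 0.36, and glycolysis and respiratory chain genes lowest, at -0.18 and -0.13.

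In the lists of fuel pathways Cs was the only call with all libraries. Branched-chain amino acid breakdown had a median of 0.21 and 18 of 20 genes above 0, with 0 called by limma and 10 higher at an unadjusted p under 0.05, beside 9.52% of all genes. Mut, the methylmalonyl-CoA mutase, and Acadsb came nearest, with 0.33 and 0.35 (adjusted p = 0.0512 and 0.0557). Without library 3 both passed, with Hibch, Aldh6a1 and Ppm1k, which makes 5 of 20, beside 3.55% of all genes. Without library 5 limma called 0 of the 20. Glycolysis genes had a median of -0.18 with 0 of 24 called by limma (unadjusted p under 0.05 for 2 upward and 9 downward, beside 9.52% and 2.84% of all genes). Its members ran from Pfkfb3, which makes an activator of glycolysis, at 0.70 (adjusted p = 0.282) to Slc16a1, a lactate and pyruvate carrier, at -0.78 (adjusted p = 0.206). Without library 5 limma called Slc16a1 and Eno1 lower. Fatty acid oxidation (0 of 25, median -0.02), lipolysis (0 of 17, -0.07), fatty acid and triglyceride synthesis (0 of 21, -0.08) and cholesterol synthesis (0 of 19, -0.07) likewise gave no call with all libraries. Fasn, the fatty acid synthase, changed by -0.08 (95% interval -0.45 to 0.29), and Pnpla2, the first lipase of fat breakdown, by 0.21 (-0.02 to 0.44). Adipoq, the hormone adiponectin, had 936, 840, 1125, 991 and 1063 TPM at 6 weeks and between 1005 and 1739 TPM (median 1225) at 8 weeks. It passed only without library 3 (0.43, adjusted p = 0.0285; with it 0.37, adjusted p = 0.113).

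The lists of markers of other cell types gave no call with all libraries. In bulk tissue, fewer cells of a type and less RNA per cell cannot be told apart. The 14 macrophage markers tested summed to between 374 and 457 TPM at 6 weeks and between 265 and 665 TPM at 8 weeks, with a median change of 0.14 and 0 called, and library 3 held the low end for C1qa (55.1 TPM). The chemokine Cxcl13 changed by 0.42 (SE 0.60, adjusted p = 0.851). T and NK cell markers summed to at most 3.38 TPM in any of the 12 libraries, and every one of the 14 was below 1 TPM throughout 8 weeks. Skeletal muscle markers ran from 965 to 5530 TPM at 6 weeks and from 852 to 4199 TPM at 8 weeks, with 0 of 21 called. Haemoglobin genes were high in library 3, with 7802 TPM of Hba-a2 where the other 6 libraries of 8 weeks had between 14.9 and 635 TPM. Their part in the results was not tested. Without that library Perm1, Ucp1 and Tmem221 changed by -1.76, -1.05 and 1.12.

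Clock genes differed between libraries within both groups. Arntl, a core activator of the clock, was at 14.9 TPM in library 3 of 6 weeks and 14.9 TPM in library 5 of 8 weeks, and at most 3.95 TPM in the other 10. Dbp, a clock output gene, was at 4.73 and 7.84 TPM in those 2 libraries and between 28.0 and 83.4 TPM elsewhere. The labels give no hour of dissection. Without both libraries 108 genes were called, 69 higher and 39 lower.

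The step in CAC was last set against the same step in the other arms, which share the CAC libraries between them. Against Con the difference passed the test for 1 gene (0.00795%), Gm7334, a predicted gene chosen for naming because it was the only call. It had 16.5, 16.7, 13.2, 4.67 and 14.8 TPM at 6 weeks and between 16.6 and 38.5 TPM (median 27.4) at 8 weeks in CAC, and went from 17.9 ± 3.91 to 12.2 ± 3.49 TPM in Con. The difference of steps was 1.66 (SE 0.32, adjusted p = 0.0360). This call did not hold up: 0 genes were called in 12 of 22 fits that left out 1 library, and in 6 other settings. The libraries left out in those 12 fits were 3 and 4 of CAC at 6 weeks, 1, 4, 6 and 7 of CAC at 8 weeks, 2, 3 and 4 of Con at 6 weeks, and 3, 4 and 5 of Con at 8 weeks. Whether the remaining fits called Gm7334 or another gene was not followed. Against NCAC 0 genes passed (1761 at an unadjusted p under 0.05, against 1002 for Con). Without library 3 the counts were 11 and 166. The median difference over all genes was 0.11 against Con and 0.15 against NCAC, and after rescaling by the median of ratios it was -0.0023 and -0.00014.

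For the leading genes the difference from Con was therefore not established, though their intervals lay on 1 side of 0. Perm1 differed by -1.51 (95% interval -2.27 to -0.75, adjusted p = 0.278) and Ucp1 by -0.97 (-1.72 to -0.23, adjusted p = 0.50). Nxnl1 differed by 0.97 (0.45 to 1.49, adjusted p = 0.299), Tmem221 by 1.14 (0.59 to 1.69, adjusted p = 0.225) and Vat1l by 1.24 (0.35 to 2.12, adjusted p = 0.455). These intervals are not adjusted for the number of genes tested.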

How the data were processed

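The authors deposited 1 table of TPM, abundances scaled for transcript length and library size, for 47643 gene symbols in 62 libraries. RNA was extracted with Trizol and sequenced on an Illumina NovaSeq from stranded TruSeq mRNA libraries, per the labels' protocols, which also mention another tumour model. The build is mm10, per the submitters' processing notes; the aligner and annotation are not given in the sources used here. Every column has the same total, so depth per library is unknown.

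The fit took the 12581 genes that reached 1 TPM in 5 or more libraries, and log2(TPM + 1) was fitted as 12 group means over all 62 libraries with limma 3.58.1 in R 4.3.3 (trended empirical Bayes, Benjamini-Hochberg). A gene was called at an adjusted p under 0.05. The script was tested on simulated data with the same spread per gene in every group. That test does not cover unequal spreads or an outlying library. Among called genes without a predicted name whose higher group averaged 5 TPM or more, the 15 largest rises and 15 largest falls (13 existed) were named. Each list also gave up to 4 called members, or else its 2 most abundant, and 19 genes were always given. Others, among them Fgl1, Stx17, Cdo1, Mttp, Maob and list members called without library 3 of 8 weeks, were chosen after their values were seen. The members, the 49 gene lists (35 of processes, 14 of cell types) and the tests were chosen with earlier results of these data known, so lists carry counts and medians and no test. Positions are from GENCODE by symbol. Same-numbered replicates of 6 and 8 weeks correlated between -0.25 and 0.28 in their deviations, so the numbers were not used to pair samples.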

Additional observations from a re-analysis of the deposited data

Results flagged for a closer look

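Of 252 sets of values examined, 17 held a library far from the rest of its group by a gap test that chance passes in about 1 of 20 sets, and 9 of the 17 were library 3 of CAC at 8 weeks. In that library Itih4 was at 41.9 TPM, C4b at 181 TPM, Hp at 391 TPM, Serpina3n at 42.4 TPM, Fkbp5 at 5.81 TPM and Cyp2b10, a xenobiotic enzyme, at 5.47 TPM (the other 6 libraries between 127 and 632 TPM). Vat1l was at 19.0 TPM, Mettl7a1 at 267 TPM and Fabp4, the adipocyte fatty acid carrier, at 12906 TPM (others between 18700 and 23579 TPM) in the same library, each the lowest of its group.

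Library 5 of 8 weeks was high for Gpd1, a glycerol phosphate enzyme (8717 TPM, others at most 5636), and for the mitochondrial chaperone Hspa9 (902 TPM, others at most 661). Library 2 of 8 weeks was high for the ribosomal protein gene Rplp1 (1283 TPM, others at most 784). At 6 weeks library 1 was high for the metallothioneins Mt1 (4036 TPM, others at most 1945) and Mt2 (2782 TPM, others at most 1025), library 2 was low for Btg3 (0 TPM, others at least 7.90) and for the apolipoprotein gene Apoc1 (1296 TPM, others at least 1694), and library 3 was high for C4a (32.9 TPM, others at most 12.6). The step from 6 to 8 weeks differed between CAC and Con for Gm7334, by 1.66 on the log2 scale, a call lost in at least 12 of 22 fits that left out 1 library.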

How the results depend on the processing

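The count of genes called between CAC at 8 and 6 weeks (82) was 52 with a pseudocount of 0.1, 54 with a filter of 5 TPM, 206 after median-of-ratios rescaling, 306 after quantile normalization, 735 with library weights, 2 in the fit of the 2 groups alone (17 there without library 3 of 8 weeks, added after seeing the data), 292 without mitochondrial transcripts and 676 without libraries 3 and 5 of 8 weeks; the last 2 settings and the one on Arntl were chosen after seeing the data. With the replicate number as a block it was 9, among them Perm1, Isg20, Fgl1, Tmem221 and Nxnl1; the numbers do not pair the samples. Leaving out 1 library gave 12 to 502. Against the step in Con the count of 1 became 0 with no filter, after median-of-ratios rescaling or quantile normalization, with the replicate block, in the fit of the compared groups alone and without both libraries of high Arntl, 446 with library weights and 106 without libraries 3 and 5 of 8 weeks (0 to 11 with 1 library left out). Against NCAC the count of 0 became 4 after median-of-ratios rescaling, 6 after quantile normalization, 2817 with library weights, 2 without mitochondrial transcripts and 273 without libraries 3 and 5 of 8 weeks (0 to 166 with 1 library left out). Library weights gave 19 calls in Con and 1018 in NCAC, and leaving out 1 library gave 0 in both. The mitochondrial share differed by -2.29 to -0.41 percentage points with 1 library left out. Among 145 named genes, 35 changed sign under some setting, 125 changes in all, none of them called with or without the change; Hp went from -0.24 to 0.33 without library 3 of 8 weeks. The cause of these shifts was not tested. Depth is unknown, so genes near 1 TPM carry an error that cannot be stated.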
